A study of Rattus norvegicus with 4 samples.

Results

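The 10 genes examined here are receptors, ligands and targets of the Notch pathway (Notch1, Notch2, Notch3, Notch4, Dll1, Dll4, Jag1, Jag2, Hes1 and Hey1), chosen by gene name from the 32883 genes of the series. All 10 were found once, and all 10 had at least 1 CPM (counts of a gene scaled to a common library size) in each of the 4 libraries. The libraries came from total RNA of the carotid body (CB), the organ beside the carotid artery that senses blood oxygen, of Sprague Dawley rats. Neonates (5 days old, 2 libraries) were compared with adults (21 days old, 2 libraries) to find what changes while the CB gains its sensitivity to hypoxia. Each library was a pool, of 6 pups or 3 adult rats by the sample labels and of more rats by the study's methods, which also give more replicates per age than the 2 analysed here, and both sexes were included, so the values are averages over animals and over all cells of the organ.

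Notch signaling passes between touching cells. A ligand of the Delta-like (Dll) or Jagged (Jag) kind on a cell binds a Notch receptor on its neighbor, the receptor is cut by Adam10 and then by the γ-secretase complex, and the freed inner part enters the nucleus, joins the DNA-binding protein Rbpj and a Mastermind (Maml) protein, and switches on repressors of the Hes and Hey kind. In vessels, Notch1, Notch4 and Dll4 act mainly in endothelium, while Notch3 acts in the mural cells (smooth muscle and pericytes) that wrap it and responds to Jag1 there. In tissue from the neural crest, the origin of the oxygen-sensing glomus cells, Notch signaling is known for holding progenitors back from becoming neurons.

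The sequence that ties receptors to targets is the core of the Rbpj binding site, TGGGAA. It was searched on both strands in RefSeq promoter windows (GRCr8, from 250 bases before the annotated start to 30 bases after it). Matching by symbol found windows for 8 of the 10 genes. Dll4 and Hey1 were not matched. Of these 8 genes, 3 (Hes1, Dll1 and Notch4) held the motif, each with 2 matches, and 5 (Notch1, Notch2, Notch3, Jag1 and Jag2) held none. Over all 33469 windows, 24.3% held at least 1 match and 3.39% held at least 2. These shares count windows, while the 8 are counted by gene, and whether 3 of 8 exceeds them was not tested. Of the other pathway genes searched, Hey2 held 2 matches, the windows of Rbpj held 1 and 2, and Heyl and Nrarp held none. The 3 windows with matches among the 8 genes are printed 5′ to 3′ along the gene. Their matches are in capitals, since they show where the motif lies. In Hes1 (chr11:84213016-84213295, minus strand) both matches read forward, and their first bases lie 123 and 109 bases before the start. In Dll1 (chr1:64993245-64993524, minus strand) the matches begin 185 bases before the start, on the opposite strand, and 82 bases before it. In Notch4 (chr20:4189043-4189322, minus strand) both matches are on the opposite strand, beginning 246 and 93 bases before the start. A match describes the letters of the window only.
Hes1: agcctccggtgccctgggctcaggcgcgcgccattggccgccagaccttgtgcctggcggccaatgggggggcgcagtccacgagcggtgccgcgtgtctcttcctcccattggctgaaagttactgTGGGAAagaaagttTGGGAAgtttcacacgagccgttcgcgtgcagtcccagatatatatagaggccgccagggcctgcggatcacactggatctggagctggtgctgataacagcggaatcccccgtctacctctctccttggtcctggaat
Dll1: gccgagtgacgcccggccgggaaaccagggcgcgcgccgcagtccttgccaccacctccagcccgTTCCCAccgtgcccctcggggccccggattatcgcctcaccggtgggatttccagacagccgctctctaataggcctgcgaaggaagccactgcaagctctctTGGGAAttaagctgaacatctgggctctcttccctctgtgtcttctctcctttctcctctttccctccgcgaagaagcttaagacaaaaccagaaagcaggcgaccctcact
Notch4: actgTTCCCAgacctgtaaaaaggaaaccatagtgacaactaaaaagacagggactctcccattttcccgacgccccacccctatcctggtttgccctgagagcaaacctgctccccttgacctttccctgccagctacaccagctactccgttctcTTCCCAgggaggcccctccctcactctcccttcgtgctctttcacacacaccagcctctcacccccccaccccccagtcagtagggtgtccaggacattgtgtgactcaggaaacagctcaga

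Totals ran from 36286191 to 39476110 estimated counts per library, and single counts of the 10 genes from 83 (Hey1, neonate replicate 1) to 4223 (Notch1, neonate replicate 2). The estimated counts of all 10 were whole numbers as deposited, with no sign of reads divided between copies. Levels are given as CPM scaled by edgeR's TMM factors, which were 0.902 and 0.935 for neonates and 1.08 and 1.10 for adults. Changes are given as log2 FC, the log2 fold change of neonates over adults, and were tested by the quasi-likelihood method of edgeR, with p-values adjusted by Benjamini-Hochberg across the 13843 genes tested. A positive log2 FC marks a gene that was higher in neonates. CPM are not divided by transcript length, and levels are therefore compared between ages within a gene and not between genes. The markers of glomus cells were present in every library (8 of 8, with Th between 837 and 1407 CPM), which fits the labelled organ. Mitochondrially encoded transcripts took 15.6% to 18.7% of the counts in neonates and 9.06% to 9.08% in adults. Parathyroid transcripts were present in the neonatal libraries and differed between them, with Pth at 1773 and 208 CPM, against 0 counts in both adult libraries. Each count of calls was therefore also made without neonate replicate 1. Neonate replicate 2 still held Pth, so that run cannot separate parathyroid RNA from age.

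Of the 10 genes, 5 were higher in neonates (Notch1, Notch4, Jag1, Jag2 and Hes1), 2 were lower (Notch2 and Notch3) and 3 did not pass the test (Dll1, Dll4 and Hey1) at an adjusted p under 0.05. Among all genes tested, 31.2% were higher in neonates by this rule and 31.1% were lower, 62.3% in all, so that the 7 of 10 called are close to the share of all genes. Only Notch3 reached a 2-fold change as well, against 20.8% of all genes. The median log2 FC was 0.20 over the 10 genes and -0.0029 over all genes tested. Without neonate replicate 1, the library with more Pth, the counts were again 5 higher and 2 lower. Fewer cells of a type and less RNA per cell cannot be told apart in RNA from whole organs. The libraries of both ages did not overlap for 8 of the 10 genes, against 83% of all genes tested.

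**Figure D1:**
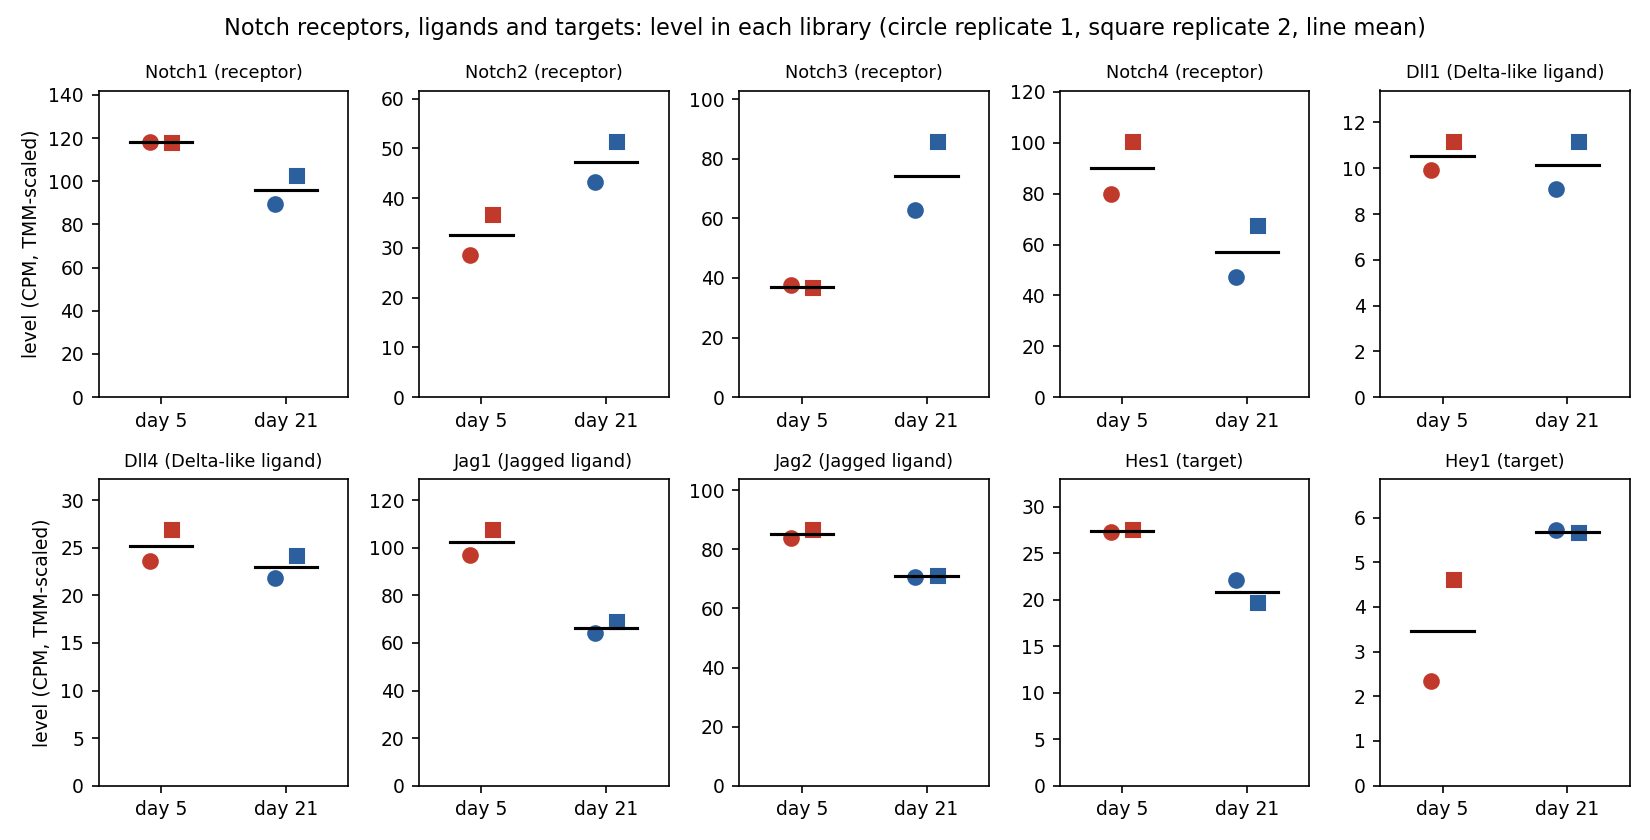
Level of each of the 10 genes in the 4 libraries, in TMM-scaled CPM on axes that start at 0, with day 5 (neonates, red) and day 21 (adults, blue) side by side. Circles are replicate 1, squares replicate 2 and lines the mean of an age. Notch2, Notch3 and Hey1 lie higher in both adult libraries, Hey1 without passing the test. Notch1, Notch4, Jag1, Jag2 and Hes1 lie higher in both neonatal libraries, and the ages overlap for Dll1 and Dll4.

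The 4 receptors divided by direction. Notch3 (ENSRNOG00000004346), the receptor of mural cells, had 37.5 and 36.7 CPM in the neonatal libraries and 62.7 and 85.7 CPM in the adult libraries. The neonatal libraries were nearly equal, and both adult libraries lay well above them while differing from each other. The log2 FC was -1.001 (standard error, SE, 0.14, adjusted p = 0.00030), which is 2.001-fold and sits on the 2-fold line. Notch2 (ENSRNOG00000018835), a receptor found in many cell types, had 28.6 and 36.7 CPM in neonates and 43.2 and 51.4 CPM in adults, a log2 FC of -0.54 (SE 0.14, adjusted p = 0.0077). Its libraries did not overlap between ages, and the gap between neonate replicate 2 and adult replicate 1 was smaller than the spread within either age. Without adult replicate 2 its adjusted p was 0.051, at a log2 FC of -0.41.

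Notch4 (ENSRNOG00000000442), a receptor largely restricted to endothelium, moved the other way, with 80.1 and 100.5 CPM in neonates and 47.1 and 67.2 CPM in adults. Both neonatal libraries exceeded both adult libraries, although replicates of an age differed by more than the closest libraries of different ages did. The log2 FC was 0.66 (SE 0.16, adjusted p = 0.0071), or 1.58-fold. Notch1 (ENSRNOG00000019322), the most widely used receptor of the family and required in endothelium, had 118.4 and 117.6 CPM in neonates and 89.5 and 102.4 CPM in adults. The neonatal libraries were nearly equal and both above the adult ones. The log2 FC was 0.30 (SE 0.085, adjusted p = 0.014), and 0.20 without adult replicate 1, where the adjusted p was 0.094.

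The ratio of Notch4 to Notch3 within a library depends neither on scaling nor, in its change between ages, on transcript length. Counts of Notch4 were 214% and 274% of those of Notch3 in neonates and 75.1% and 78.3% in adults, so the ratio was above that of both adult libraries in each neonatal library. The mean log2 ratio was 1.27 in neonates and -0.38 in adults, a difference of 1.66 with a pooled SD of 0.18. This difference restates the opposite changes of these genes given above. The exact two-sided permutation p was 0.333, the smallest that 2 libraries against 2 allow, and 0.364 after adjustment over the 12 ratios computed.

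Both Jagged ligands were higher in neonates. Jag1 (ENSRNOG00000007443), a ligand made by endothelium and mural cells, had 97.0 and 107.4 CPM in neonates and 64.0 and 68.7 CPM in adults. The ages stood far apart beside the spread within them. The log2 FC was 0.62 (SE 0.088, adjusted p = 0.00031), or 1.54-fold, and its call held in every alternative run. Jag2 (ENSRNOG00000013927), the other Jagged ligand, had 84.0 and 86.5 CPM in neonates and 70.7 and 71.1 CPM in adults. Replicates were close at both ages, and the change was small, with a log2 FC of 0.27 (SE 0.079, adjusted p = 0.016). Without adult replicate 1 the adjusted p of Jag2 was 0.065, and without adult replicate 2 it was 0.066, at log2 FC values of 0.26 and 0.27. Jag1 counts were 115% and 124% of Jag2 counts in neonates and 90.5% and 96.6% in adults, a difference of 0.36 in the mean log2 ratio with a pooled SD of 0.070 (exact permutation p = 0.333).

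The Delta-like ligands did not pass the test. Dll4 (ENSRNOG00000014011), the ligand of sprouting and arterial endothelium, had 23.6 and 26.9 CPM in neonates and 21.8 and 24.1 CPM in adults. The ages overlapped, since adult replicate 2 lay above neonate replicate 1. Its log2 FC was 0.14 with a 95% interval from -0.12 to 0.39 (adjusted p = 0.32). Dll1 (ENSRNOG00000059984), a ligand of neural and muscle progenitors and of some arteries, had 9.94 and 11.1 CPM in neonates and 9.11 and 11.2 CPM in adults. Both neonatal libraries lay between the adult ones, at a log2 FC of 0.057 with a 95% interval from -0.35 to 0.47 (adjusted p = 0.80). Scaled to library size alone, both values turned negative and again did not pass. Dll4 counts were 24.3% and 25.01% of Jag1 counts in neonates and 34.1% and 35.1% in adults. The mean log2 ratio was lower in neonates by 0.49 with a pooled SD of 0.029 (exact permutation p = 0.333).

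**Figure D2:**
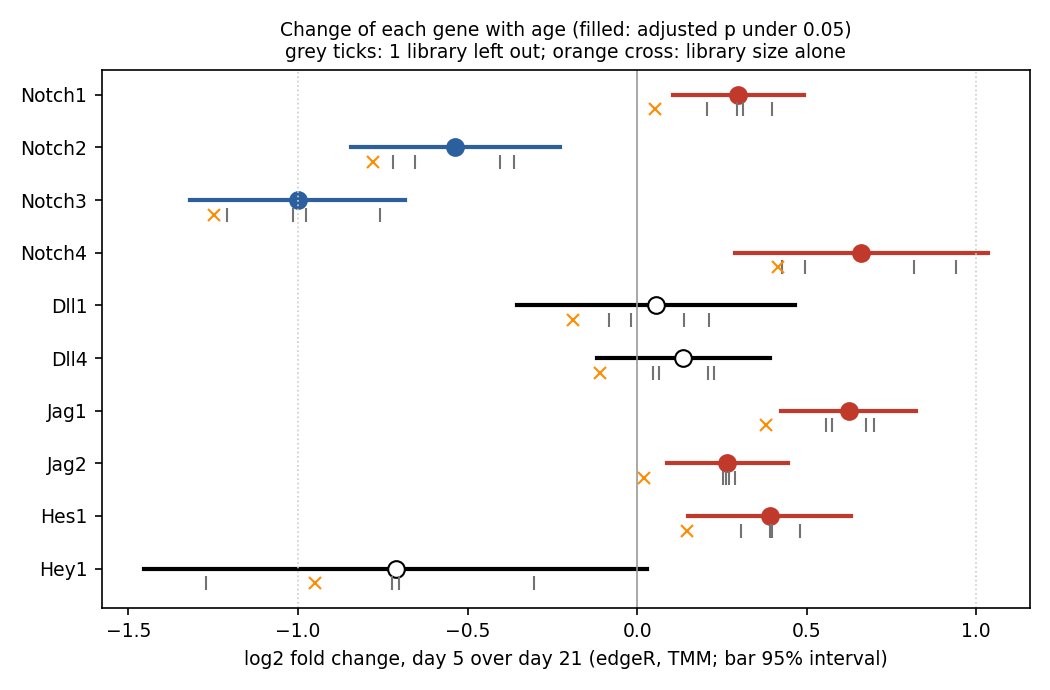
Log2 FC of each gene, day 5 over day 21, with its 95% interval from edgeR's quasi-likelihood fit. Filled points passed an adjusted p under 0.05, dotted lines mark 2-fold, grey ticks give the value with 1 library left out and orange crosses the value scaled to library size alone. Notch3 sits on the 2-fold line, Hey1 has the widest interval, and the crosses of Notch1 and Jag2 lie next to 0.

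The targets gave a mixed picture. Hes1 (ENSRNOG00000001720), a repressor that Notch signaling induces in many tissues, has 2 matches of the motif in its promoter window, as Dll1 and Notch4 do. It had 27.2 and 27.5 CPM in neonates and 22.1 and 19.6 CPM in adults. Both neonatal libraries lay above both adult ones. Its log2 FC was 0.39 (SE 0.11, adjusted p = 0.011), or 1.31-fold, and without adult replicate 2 it was 0.31 with an adjusted p of 0.084. Hey1 (ENSRNOG00000011593), a repressor typical of arterial endothelium, was low, with 2.34 and 4.59 CPM in neonates and 5.72 and 5.64 CPM in adults. The adult libraries were nearly equal, while neonate replicate 2 lay nearer to them than to neonate replicate 1. The log2 FC was -0.71 (SE 0.33, adjusted p = 0.086), with a 95% interval from -1.45 to 0.029. The neonatal libraries decided the Hey1 value. Without neonate replicate 2 it was -1.27 (adjusted p = 0.0023), and without neonate replicate 1, the library with more Pth, it was -0.30 (adjusted p = 0.31). With the replicate number as a block the adjusted p of Hey1 was 0.027. Hey1 counts were 8.58% and 16.7% of Hes1 counts in neonates and 25.9% and 28.8% in adults, so the ratio was lower in both neonatal libraries, by 1.18 in the mean log2 ratio with a pooled SD of 0.48 (exact permutation p = 0.333).

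Scaling mattered for the small changes. Normalized to library size alone, the median over all genes was -0.25, and the log2 FC of Notch1 (0.053), Notch4 (0.42), Jag2 (0.021) and Hes1 (0.15) stayed positive without passing an adjusted p of 0.05, with adjusted p of 0.64, 0.069, 0.84 and 0.26. Relative to that median they were 0.30, 0.66, 0.27 and 0.39, as with TMM. A change of scaling shifts all genes by about the same amount, so this match was fixed in advance and is no test of the calls. Under that scaling Hey1 passed, at -0.95 (adjusted p = 0.036), and Jag1, Notch2 and Notch3 kept their calls.

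Vessel markers give the cellular background of these values. Of 14 endothelial markers fixed as a list, 13 were in the data and 12 were tested, of which 2 were higher in neonates, 5 were lower and 5 did not pass. Their summed level was 2101 and 2078 CPM in neonates and 2266 and 2134 CPM in adults, so the sum was slightly lower in neonates while Notch1 and Notch4 were higher. The first tested of the list, Cdh5, the endothelial cadherin, had 256 and 239 CPM in neonates and 220 and 216 CPM in adults (log2 FC 0.18, adjusted p = 0.069), and Kdr, a receptor for Vegfa, had 188 and 240 CPM against 197 and 183 CPM (0.17, adjusted p = 0.21). The largest changes of the list went the other way, in Vwf, the von Willebrand factor of endothelium, with 55.2 and 58.0 against 102.9 and 114.5 CPM (-0.94, adjusted p = 3.5e-05), and Ptprb, an endothelial phosphatase, with 41.6 and 49.8 against 77.9 and 90.5 CPM (-0.88, adjusted p = 0.00020). All 6 arterial markers were tested, of which 2 were lower and 4 did not pass, with sums of 199 and 202 CPM in neonates and 219 and 245 CPM in adults. Of the 10 mural markers, 3 were higher, 5 were lower and 2 did not pass. Their sum was 2036 and 2159 CPM in neonates and 2707 and 2853 CPM in adults, of which Rgs5, a pericyte gene, gave 302 and 265 CPM against 1009 and 971 CPM. Pdgfrb, the receptor that marks pericytes, had 303 and 351 CPM against 252 and 276 CPM (log2 FC 0.31, adjusted p = 0.021). Rgs5 accounted for the difference in the mural sum. Without it the other 9 markers summed to 1734 and 1894 CPM in neonates and 1698 and 1882 CPM in adults, so the ages overlapped, with 3 of the 9 higher, 4 lower and 2 that did not pass.

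Per 100 counts of the endothelial list, Notch4 had 3.81 and 4.84 counts in neonates and 2.08 and 3.15 in adults. Notch1 had 5.63 and 5.66 in neonates against 3.95 and 4.80, and Jag2 had 3.998 and 4.16 against 3.12 and 3.33. For these genes the neonatal ratios were above the adult ones in every library, as their levels were. These ratios depend on the markers summed. Emcn (log2 FC 0.28) and Esam (0.35) were higher in neonates about as much as Notch1 (0.30) and Jag2 (0.27), while 5 markers were lower. Ratios to single markers are not given. Dll4 had 1.12 and 1.29 in neonates against 0.963 and 1.13, and its ages overlapped in this ratio too. Hey1 had 0.111 and 0.221 against 0.252 and 0.265, lower in both neonatal libraries.

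Per 100 counts of the mural list, Notch3 had 1.84 and 1.70 counts in neonates and 2.31 and 3.01 in adults, a difference of -0.58 in the mean log2 ratio with a pooled SD of 0.20. Jag1 had 4.76 and 4.97 against 2.36 and 2.41, a difference of 1.03 with a pooled SD of 0.034. Both values turned on Rgs5 in the sum. Over the 9 other mural markers the Notch3 difference was -1.003 and that of Jag1 was 0.60, next to their log2 FC of -1.001 and 0.62. Ages did not overlap in 11 of the 12 ratios, where the exact permutation p was 0.333, and overlapped for Dll4 over the endothelial list (0.667). Beside this count, the levels of 83% of all genes tested did not overlap between ages. The genes and lists were also chosen with earlier results of these data known. What part cell numbers had in these ratios was not tested.

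**Figure D3:**
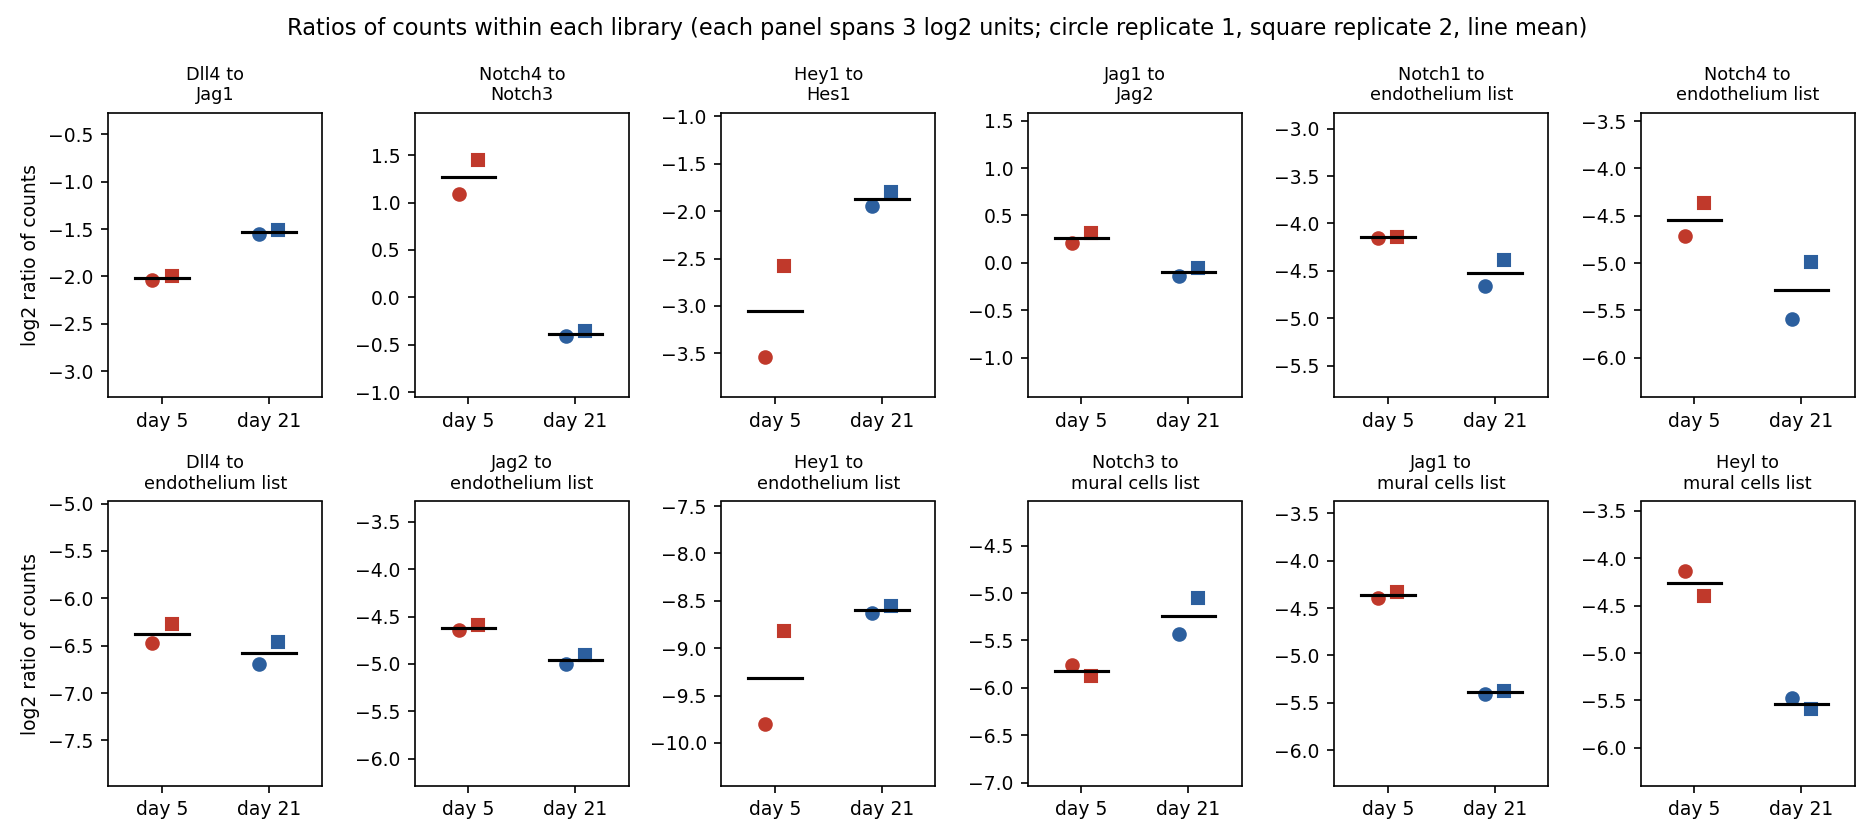
Log2 ratios of counts within each library, for pairs of Notch genes and for single genes over the summed endothelial or mural markers, with day 5 in red and day 21 in blue. Every panel spans the same range on the log2 scale, circles are replicate 1, squares replicate 2 and lines the mean. Notch4 to Notch3 shows the widest separation between ages, and Dll4 to the endothelial list is the panel in which the ages overlap.

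Other cell types were followed by further lists. Sums for glomus cells were 5191 and 3847 CPM in neonates against 4327 and 3606 in adults (3 of 8 higher, 2 lower). Glia had 765 and 867 against 1021 and 1090 CPM (2 of 6 tested higher, 3 lower), fibroblasts 6200 and 7528 against 8286 and 8695 CPM (0 of 4 higher, 3 lower), and immune cells 25.1 and 26.8 against 41.5 and 42.0 CPM (0 of 3 tested higher, 2 lower). All 5 proliferation genes were higher in neonates, with sums of 516 and 434 against 108 and 110 CPM, as were all 5 red blood cell genes, with 12945 and 7353 against 2816 and 2459 CPM. The 2 parathyroid genes tested were higher in neonates, and the list summed to 1796 and 212 CPM against 0.025 and 0.050 CPM. Skeletal muscle genes summed to 12.9 to 21.0 CPM over all libraries (0 of 3 tested passed), and fat cell genes to 118 to 185 CPM (1 of 4 higher, 3 lower). The part of these cell types in the Notch values was not tested.

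Around the 10 genes, 45 other genes of the pathway were listed, of which 44 were in the data and 39 were tested. Of these, 10 were higher in neonates, 16 were lower and 13 did not pass, against 31.2% higher and 31.1% lower among all genes. At 2-fold 1 was higher and 7 were lower, against 7.68% and 13.2% of all genes. Their median log2 FC was -0.14. The genes lower at 2-fold were Itch, Pofut1, Mib1, Ep300, Rbpj, Adam10 and Lfng, which include the DNA-binding partner of all 4 receptors and enzymes that modify or cut them. In each class the highest and the lowest value and the genes past 2-fold are given, and others were named after their values were seen. Counts within a class are small and are read against the same shares of all genes.

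In the nucleus, Rbpj (ENSRNOG00000046327) had 31.5 and 32.2 CPM in neonates and 73.7 and 78.8 CPM in adults. The ages were far apart, at a log2 FC of -1.26 (SE 0.092, adjusted p = 1.1e-05), or 2.39-fold lower in neonates. A fractional count of Rbpj in the data shows that some of its reads fit another sequence. Ep300, the acetyltransferase recruited to the complex, had 3.21 and 3.34 against 7.17 and 9.20 CPM (log2 FC -1.32, adjusted p = 0.0013). Of 7 genes tested in this class, 5 were lower in neonates (Rbpj, Ep300, Maml1, Maml2 and Spen) and 0 were higher. The co-activator Maml1 was at -0.44 (adjusted p = 0.0036) and its relative Maml2 at -0.83 (adjusted p = 0.046). The Maml2 call was lost without neonate replicate 1 (-0.44, adjusted p = 0.15), without adult replicate 1 (-0.93, adjusted p = 0.084) and without adult replicate 2 (-0.72, adjusted p = 0.19), and without neonate replicate 2 the value was -1.33. Spen, at -0.26, lost its call when any of the libraries other than neonate replicate 2 was left out (adjusted p from 0.072 to 0.24). Snw1 gave the highest value, 0.19 (adjusted p = 0.054).

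Among the genes for receptor cleavage, 4 of 8 were lower in neonates (Adam10, Adam17, Furin and Ncstn), 1 was higher and 3 did not pass. Adam10, the protease of the first cut, had 48.1 and 52.7 against 111.9 and 127.8 CPM (-1.25, adjusted p = 1.3e-05). Psen2, a catalytic subunit of γ-secretase, had 39.1 and 37.5 against 42.2 and 42.2 CPM (-0.14, adjusted p = 0.20). Psenen, a small subunit of the same γ-secretase complex, was higher in neonates, with 108.4 and 104.9 against 78.3 and 66.4 CPM (0.56, adjusted p = 0.00088). Ncstn, another subunit, was lower, so members of the complex differed in direction.

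Of the 5 glycosylation genes, Pofut1 and Lfng were lower in neonates and the others did not pass. Pofut1, which adds fucose to Notch, had 9.18 and 8.96 CPM in neonates and 26.0 and 29.8 CPM in adults (-1.62, adjusted p = 1.4e-05). Lfng, a Fringe enzyme that extends this fucose and shifts the receptor toward Delta-like ligands, had 13.8 and 13.3 against 29.0 and 28.2 CPM (-1.08, adjusted p = 4.7e-05). The other Fringe genes, Mfng (-0.15) and Rfng (0.27), did not pass. Lfng was about 2-fold lower at the age at which the Jagged ligands were higher, and a link between these changes was not tested.

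Of the 11 genes for endocytosis and turnover, 5 were higher in neonates (Mib2, Fbxw7, Dtx2, Numbl and Dtx3), 5 were lower (Itch, Mib1, Dtx1, Dtx4 and Numb) and 1 did not pass (Neurl1). Mib1, the ubiquitin ligase that activates ligands on the sending cell, had 8.08 and 7.24 CPM in neonates and 24.6 and 22.0 CPM in adults (-1.61, adjusted p = 2.5e-05). Its relative Mib2 went the other way, with 83.5 and 79.6 against 46.7 and 53.4 CPM (0.70, adjusted p = 0.00025). Itch, a ubiquitin ligase for Notch, had the lowest value of the class at -1.70 (adjusted p = 5.8e-06). Related genes again parted, since Numbl was higher (0.35) and Numb lower (-0.40) in neonates. Calls were lost for Numb without neonate replicate 1 or adult replicate 2 (adjusted p of 0.071 and 0.15), for Numbl without adult replicate 1 (0.057), and for Dtx4 (-0.87) without neonate replicate 2 (-0.51, adjusted p = 0.11) or adult replicate 2 (-0.56, adjusted p = 0.25). At library size alone Numbl, Dtx2 and Dtx3 did not pass.

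**Figure D4:**
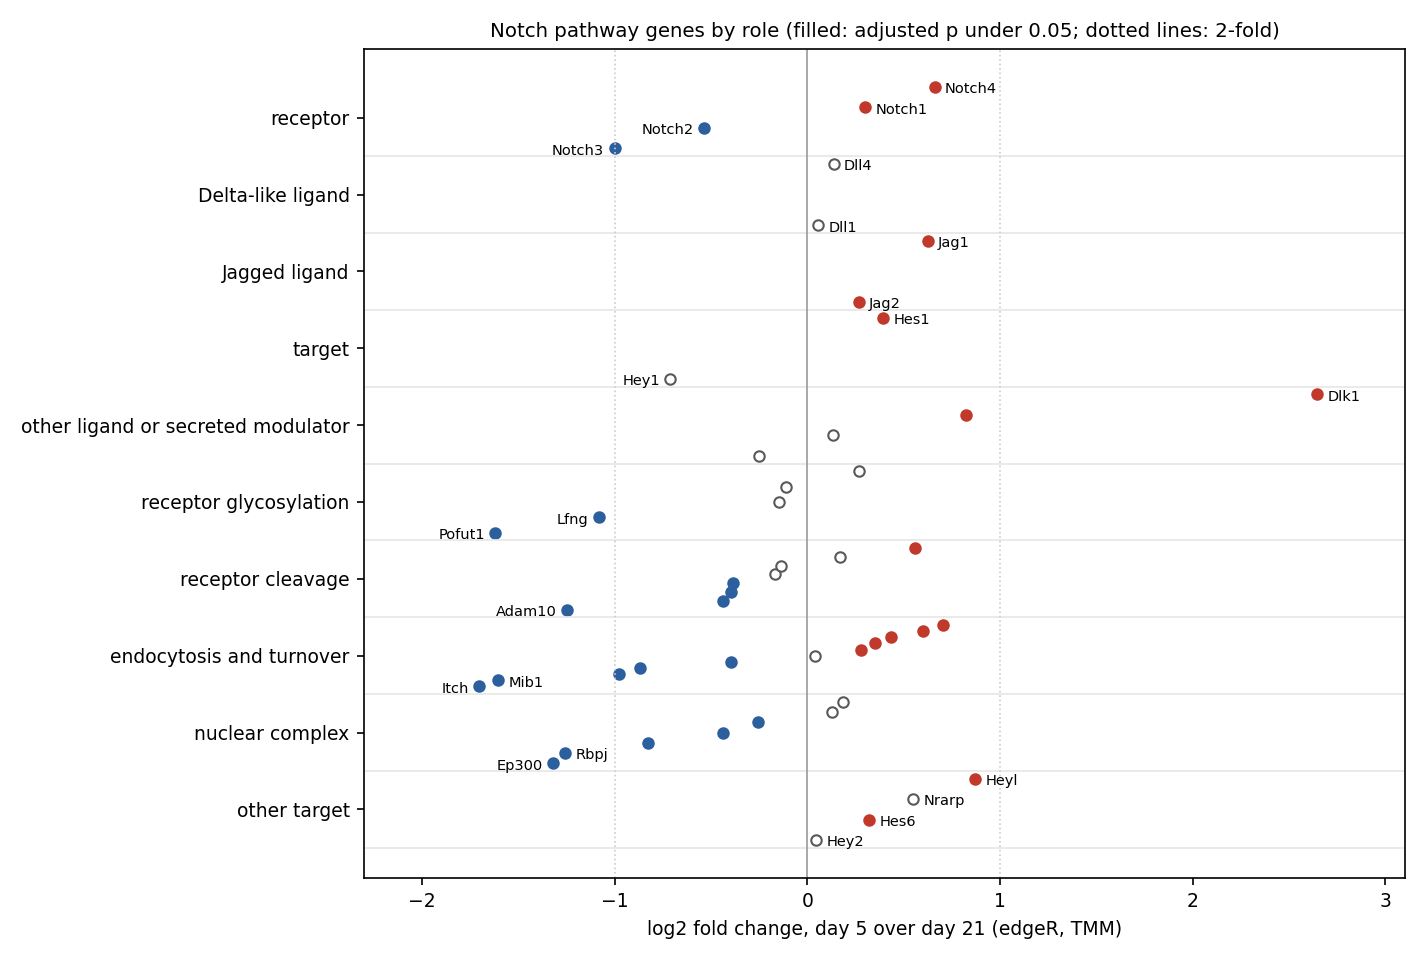
Log2 FC, day 5 over day 21, of the 10 genes and of 39 other pathway genes grouped by role, with filled points for an adjusted p under 0.05 and dotted lines at 2-fold. Genes past 2-fold, the 10 genes and the other targets are named. The lowest value is -1.70 (Itch), and Dlk1 stands alone at 2.64.

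Other ligands and targets completed the picture. Dlk1, an imprinted Delta-like protein that lacks the DSL domain of the other ligands, had 77.3 and 71.1 CPM in neonates and 13.9 and 9.85 CPM in adults. It was 6.25-fold higher in neonates (log2 FC 2.64, SE 0.15, adjusted p = 3.7e-06), far more than any of the 10 genes. Egfl7, a secreted endothelial protein, was higher as well (0.82, adjusted p = 6.4e-05), and Mfap5 gave the lowest value of that class (-0.25, adjusted p = 0.12). Among other targets, Heyl, a Hey-type repressor of mural cells, had 116.2 and 102.6 against 60.7 and 59.0 CPM (0.87, adjusted p = 5.3e-05). Per 100 counts of the mural list it had 5.71 and 4.75 counts in neonates and 2.24 and 2.07 in adults, and over the list without Rgs5 it had 6.70 and 5.41 against 3.57 and 3.14, so Heyl was higher in neonates where Notch3 was lower. Hes6, listed with the other targets, gave 0.32 (adjusted p = 0.032). Its call was lost without neonate replicate 2 (0.28) or adult replicate 2 (0.19), and at library size alone (0.078, adjusted p = 0.57). It was also lost with no filter on low counts (0.30, adjusted p = 0.065) and at a mean of at least 5 CPM (0.29, adjusted p = 0.051). Hey2, at 41.8 and 42.8 against 40.8 and 41.1 CPM, did not pass (0.045, 95% interval from -0.15 to 0.24, adjusted p = 0.67). Dll3, Hes2, Hes3, Hes5 and Hes7 were too low to be tested, with at most 17 counts in any library, and Hes3 had 0 counts in all 4, where 3 counts, the limit that a count of 0 allows, would be 0.074 to 0.084 CPM.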

How the data were processed

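Total RNA of pooled carotid bodies was sequenced after poly A+ selection in 2 neonatal and 2 adult libraries. The authors trimmed the reads, mapped them with STAR and quantified them with Salmon 1.5.2 on Rnor_6.0, and deposited estimated counts summed per gene, with no normalization and no filter. Strand handling was not given in the sources used here.

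Counts were rounded to whole numbers for edgeR 4.0.16 (R 4.3.3). Genes annotated by symbol as other than protein-coding (636 of 32883) were removed, a level of 1 CPM or more was required in 2 or more libraries, and neonates were compared with adults by the quasi-likelihood test after TMM, without covariates. Calls used an adjusted p under 0.05, alone or with a fold change of at least 2. Standard errors were taken as the log2 fold change over the square root of F. Ratios within a library used counts + 0.5. Since each library is a pool, p-values rest on the spread between pools, which edgeR estimates with information shared across genes. The limit given for a count of 0 covers counting error only. Members and lists were chosen with earlier results of these data known. All 10 genes are described, and of other pathway genes the highest, the lowest and those past 2-fold in each class. A gene of the pathway list is not reported here.

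Alternatives were RLE factors, scaling by library size only, TMM factors that leave out mitochondrial and ribosomal protein genes, DESeq2 1.42.0, limma-voom 3.58.1, no filter, a mean level of 5 CPM or more, every biotype kept, a replicate block and each library left out. The test was tried on simulated data of 13843 genes for this comparison.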

Additional observations from a re-analysis of the deposited data

How the results depend on the processing

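Signs of the 7 called genes held in all alternatives. The count of genes higher in neonates was 5, and 1 at library size alone. With a library left out it ran from 3 (without adult replicate 1, or without adult replicate 2) to 5. The count of genes lower was 2, and ran from 1 (without adult replicate 2) to 3 (without neonate replicate 2). Notch3 alone passed 2-fold, and with RLE factors, TMM factors that leave out mitochondrial and ribosomal protein genes, DESeq2, limma-voom or the replicate block the count was 0. It was 0 to 1 with a library left out, 0 without adult replicate 2, each time with the call of Notch3 at an adjusted p under 0.05 kept. Of the other pathway genes, 10 were higher, and 6 at library size alone. Leaving out a library gave 9 to 11, and 12 to 16 of those lower. Log2 ratios moved by less than the pooled SD with counts + 5. With Rgs5 left out of the mural list, an alternative chosen after seeing the data, the differences in log2 ratio were -1.003 for Notch3, 0.60 for Jag1 and 0.85 for Heyl. Of the 26 other pathway genes called, 6 lost the call with a library left out, 4 at library size alone, and 18 kept it in every alternative that tested them.

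Replicate numbers did not pair the libraries over the 13843 genes tested. The correlation between the deviations of neonate replicate 1 and adult replicate 1 from their age means was -0.015. Among the 10 genes, Notch2, Notch4, Dll1, Dll4, Jag1 and Jag2 were higher in replicate 2 at both ages, while Notch1, Notch3, Hes1 and Hey1 were not. Whether the replicate numbers mark a shared difference for these genes was not tested. With the replicate block, 9093 genes were called in place of 8625, and 5 of the 10 genes were higher and 3 lower, Hey1 being added. Hey1 also passed with limma-voom (-0.79, adjusted p = 0.044), and with a mean of at least 5 CPM it was not tested. Where a library is left out, the lone library of an age is assumed to vary like the other age. Depth limits the untested genes, with at most 17 counts in a library.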

Other observations

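Nrarp, a feedback inhibitor that Notch signaling induces, had 28.8 CPM in neonate replicate 1, 16.8 in neonate replicate 2, and 16.8 and 14.3 in adults (log2 FC 0.55, adjusted p = 0.056 in edgeR). Neonate replicate 2 was level with adult replicate 1, so the difference rested on neonate replicate 1, the library with more Pth. Without neonate replicate 2 the value was 0.90, and over all alternatives it ran from 0.11 to 0.90. Hey1 differed between the same neonatal libraries in the opposite direction, at 2.34 and 4.59 CPM. These libraries also differed in Chga (1725 and 793 CPM), in Pth (1773 and 208 CPM) and in Hbb (2911 and 1740 CPM), and the part of any of these in the Nrarp and Hey1 values was not tested.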
